A study of Homo sapiens with 33 samples.

Results

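The comparison described here sets 3 FLAG immunoprecipitates from cells with tagged CTCF against the 3 Input libraries of the same oligonucleotide pool, 6 of the 33 libraries in the series. They were taken by their labels alone, and the immunoprecipitate and Input with the same replicate number were treated as a pair. All 6 libraries came from HEK293T, a human embryonic kidney cell line, that overexpressed FLAG-GFP-CTCF and had been transfected with the pool. Cells were harvested 48 hours after transfection and cross-linked with 0.1% formaldehyde for 10 minutes. The precipitation was through the FLAG tag. CTCF was therefore an added, tagged protein in Input and immunoprecipitate alike, and the RNAs were short pieces transcribed from transfected oligonucleotides, not the cellular transcripts. No mock precipitation stands beside these groups, so recovery with CTCF and recovery with the antibody or beads cannot be told apart.

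CTCF is a DNA-binding protein with an array of zinc fingers. It holds chromatin loops and domain borders in place together with cohesin, and it also binds RNA through some of its zinc fingers and other stretches. Several noncoding RNAs of the X chromosome and an antisense RNA from the WRAP53 locus have been described as its partners. A pool of tiles, each a stretch of a source RNA joined to a short barcode, lets such recovery be read stretch by stretch: a tile held by the protein takes a larger share of the reads in the immunoprecipitate than in Input. Shares within a library sum to a fixed total, so a tile can be higher because others are lower.

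The pool held 985 tiles, each with 24 barcodes, of which 977 had enough reads to be tested. Of the tested tiles, 734 belong to 8 source RNAs. These were 3 long noncoding RNAs of the X chromosome (TSIX, 471 tiles; FIRRE, 52; JPX, 21), 2 further RNAs with a published tie to CTCF (WRAP53, 28; SRA1, 26) and 3 mRNAs (MBP, 87; PPIA, 29; GAPDH, 20). Tile names carry the RNA and a number. Their sequences and places in the RNA are not given here, so neighbouring numbers are read as neighbours in name only, and tiles of an RNA may share sequence.

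Libraries held 35234255 to 51341630 reads in Input and 44570966 to 58020403 in the immunoprecipitate, with a median of 28413 to 47324 reads per tile. Barcodes without a read made up 3.00% to 4.34% of barcodes in Input and 7.16% to 8.92% in the immunoprecipitate. The immunoprecipitate of replicate 1 stood apart. It had correlations of 0.76 to 0.83 (log2 CPM, over 977 tiles) with the libraries of replicates 2 and 3, whereas the libraries of replicates 2 and 3 had correlations of 0.90 to 0.97 among themselves. In pair 1, 44 tiles lay below -2 in log2 ratio, against 7 in pair 2 and 2 in pair 3. Of these 44, only 2 were called. Results are therefore given with and without this pair.

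In the immunoprecipitate, 17 of 28 tiles of WRAP53 and 12 of 20 of the mRNA of GAPDH, a glycolytic enzyme, were higher than in Input when libraries were paired. Without the pairing 2 and 1 were, beside 28 of all 977 tested tiles. Lower tiles of the 8 RNAs came mainly from TSIX (79 of 88), a long noncoding RNA made in the X-inactivation centre. TSIX held 471 of the 734 tested tiles of these RNAs. Of its tiles 16.8% were lower, beside 12.2% of all tested tiles. A tile was called where the paired edgeR quasi-likelihood test gave a Benjamini-Hochberg adjusted p under 0.05 over all tested tiles. By this rule 151 of 977 tiles were higher (15.5%) and 119 were lower (12.2%). The called differences were modest: the median was 1.68-fold for higher and 1.62-fold for lower tiles, and 31 higher and 12 lower tiles passed 1 unit of log2. Each of the 270 called tiles had the same sign in all 3 pairs, which a paired test favours. The same held for 336 of the 707 tiles not called. The 6 libraries separated without overlap in 177 tiles that were higher (18.1%) and 153 that were lower (15.7%).

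The number of calls rested on the pairing and on which replicates were used. Without the pairing, edgeR called 47 tiles (4.81%), 28 higher and 19 lower, and all 47 were also called in the paired fit with the same sign. Each described RNA lost most of its calls. Higher tiles kept were TSIX 6 of 23, MBP 4 of 20, PPIA 3 of 10, JPX 2 of 8 and WRAP53 2 of 17. SRA1 kept 1 of 9, GAPDH 1 of 12 and FIRRE 0 of 13. Of lower tiles TSIX kept 16 of 79 and the other RNAs none. DESeq2 with the pairing called 493. Without pair 1 the paired edgeR fit called 474 of 977 tiles (243 higher, 231 lower), among them 265 of the 270. Without pair 2 it called 104 of 976 (61 higher, 43 lower), among them 102 of the 270. Without pair 3 it called 0, with 267 at an unadjusted p under 0.05. The 270 rest on the same pairs, so overlap with them is in part set by that choice. Counts below are from all 3 pairs, and those of each RNA are followed by the counts without pair 1, 2 and 3.

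**Figure D1:**
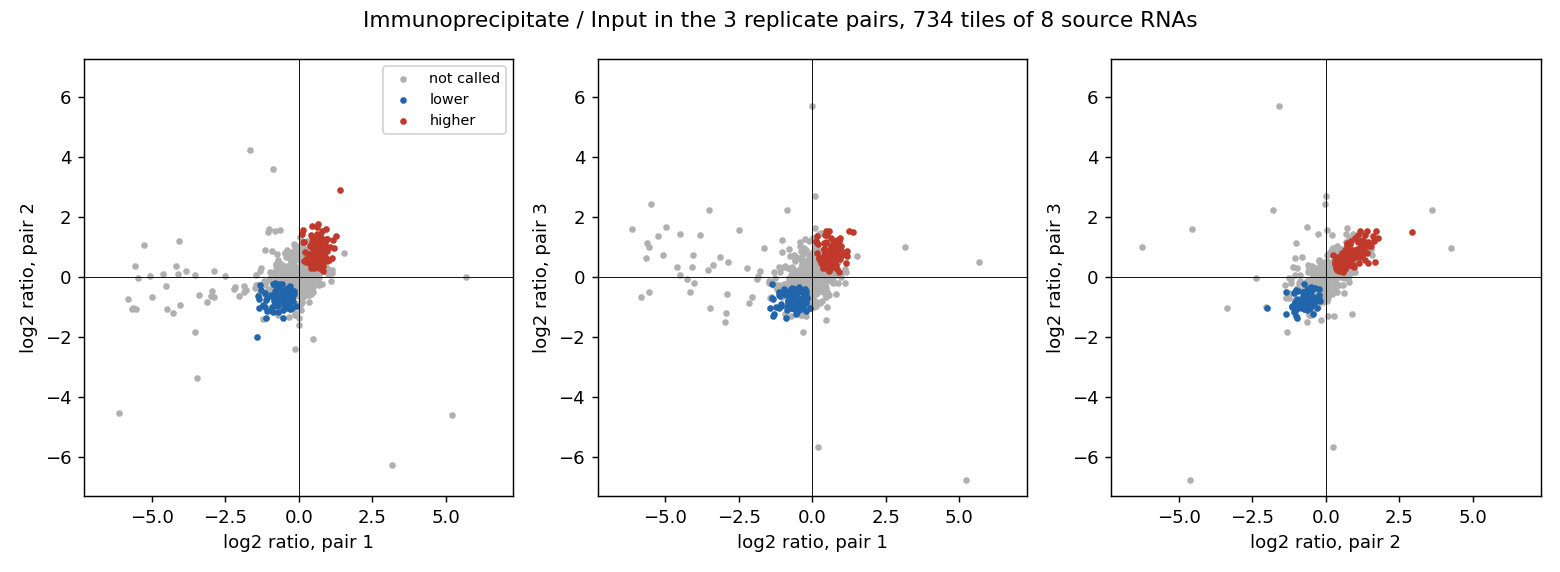
Log2 ratio of immunoprecipitate to Input for each of 734 tiles (points) in replicate pair 1 against pair 2, pair 1 against pair 3 and pair 2 against pair 3, with tiles called higher in red, lower in blue and not called in grey. Pairs 2 and 3 follow each other most closely (r = 0.55 over these tiles), and pair 1 carries a spread of low grey points. The called tiles lie in the quadrants where the pairs share a sign, which a paired test favours.

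Across tiles the pairs differed in how far they followed each other, but the median of each RNA kept its sign in all 3. As a description over 734 tiles of shared libraries, the paired log2 ratios had a correlation of 0.55 between pairs 2 and 3, 0.26 between pairs 1 and 2 and 0.03 between pairs 1 and 3. The SD over tiles was 1.07 in pair 1, 0.75 in pair 2 and 0.74 in pair 3. The median log2 ratio of TSIX tiles was nevertheless -0.23, -0.19 and -0.18 in pairs 1, 2 and 3. That of WRAP53 tiles was 0.50, 0.55 and 0.47, and that of GAPDH tiles 0.48, 0.59 and 0.57. Over all tested tiles the medians were -0.04, 0.00 and 0.01. Scaling centres each library on the bulk of its tiles, so a whole-pool median near 0 is not a result. The medians of TSIX and of the other described RNAs lay on opposite sides of it in every pair. As TSIX made up 471 of the 977 tested tiles, these 2 sides are not independent.

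**Figure D2:**
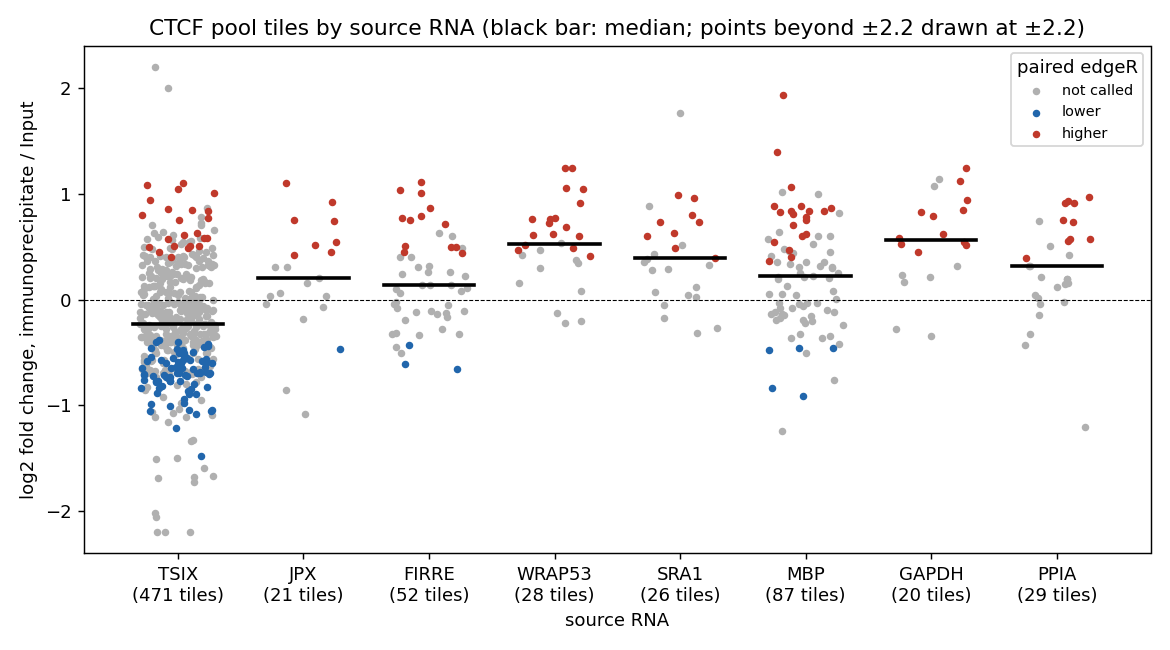
Fitted log2 fold change (immunoprecipitate over Input, paired fit) of each tile, by source RNA, with called tiles coloured, the median as a black bar and points beyond the range drawn at its edge. The TSIX median lies below 0 at -0.23 and the other 7 medians lie above it, from 0.14 for FIRRE to 0.57 for GAPDH.

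Summed over its tiles, each RNA moved the same way in all 3 pairs. TSIX took 41.8%, 44.9% and 44.8% of the Input reads in replicates 1, 2 and 3 and 36.6%, 40.3% and 40.0% of the immunoprecipitate reads (43.8% ± 1.77 against 39.0% ± 2.05, SD, n = 3). The groups did not overlap. WRAP53 took 4.39%, 3.32% and 3.36% of Input and 6.05%, 4.68% and 4.65% of the immunoprecipitate, 1.39 times as much on average, again without overlap. Shares also rose in every pair for GAPDH (1.85% ± 0.442 to 2.55% ± 0.420), SRA1 (3.18% ± 0.630 to 4.04% ± 0.935), PPIA (3.04% ± 0.192 to 3.72% ± 0.0900), JPX (2.41% ± 0.142 to 2.74% ± 0.229), MBP (10.4% ± 0.399 to 11.6% ± 0.739) and FIRRE (5.43% ± 0.164 to 6.00% ± 0.166). For GAPDH and SRA1 the groups overlapped, because both libraries of replicate 1 were high. No test was run on these shares.

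TSIX gave 79 lower and 23 higher tiles of 471, and 369 did not pass. That is 16.8% lower and 4.88% higher, beside 12.2% and 15.5% over all tested tiles. The median log2 fold change was -0.23, beside -0.04 over all tested tiles. Its lower tiles numbered 145, 29 and 0 without pair 1, 2 and 3, and its higher tiles 62, 6 and 0. TSIX held 474 of the 985 tiles, and its median stayed below 0 under each scaling tried (-0.24 to -0.22). Each of these scalings uses the pool itself, which is in large part TSIX, so none is independent of TSIX.

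All of the 10 lowest called tiles of the 8 RNAs came from TSIX, which held 471 of the 734 tested tiles of these RNAs. TSIX_455 had 979, 945 and 919.8 CPM in Input (reads scaled to the TMM library size, replicates 1 to 3) and 364, 237 and 454 in the immunoprecipitate. Every immunoprecipitate value lay well under every Input value, a log2 fold change of -1.48 ± 0.22 (SE, n = 3 pairs, adjusted p = 0.00912 in edgeR), and 0 of its 24 barcodes were higher. TSIX_117 had 749, 977 and 980.3 CPM in Input and 296, 483 and 402 in the immunoprecipitate (-1.21 ± 0.16). TSIX_125 went from 1089, 1351 and 1219 CPM to 582, 685 and 476 (-1.08 ± 0.14). For these tiles too the groups did not overlap, and 1 and 2 of 24 barcodes were higher.

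The next of the lowest tiles differed in how even their pairs were. TSIX_316 held 227, 452 and 505 CPM in Input and 103, 228 and 248 in the immunoprecipitate. Its groups overlapped because replicate 1 was low in both fractions, while its paired log2 ratios were close together at -1.14, -0.99 and -1.03. TSIX_467 (-1.05 ± 0.15), TSIX_209 (-1.04 ± 0.23), TSIX_365 (-1.04 ± 0.12), TSIX_329 (-1.01 ± 0.12), TSIX_149 (-0.99 ± 0.24) and TSIX_135 (-0.98 ± 0.19) made up the rest. Their groups did not overlap, and 0 to 3 barcodes of each were higher.

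Within TSIX, lower tiles occurred along the whole range of tile numbers and were densest in its lower middle and at its end. In stretches of 50 tile numbers, 15 of 50 tiles were lower between numbers 101 and 150 and 11 of 50 in each of the next stretches up to 250. The median log2 fold change did not follow these counts throughout. It was -0.38 between 51 and 100, where 8 of 50 tiles were lower, and -0.37 between 101 and 150. Between 201 and 250 it was -0.15. In the stretch from 401 to 450, 4 of 50 tiles were lower and the median log2 fold change was 0.03. In the last stretch, 451 to 474, 6 of 24 tiles were lower and the median was -0.40. The borders of these stretches are arbitrary and give a description only.

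Tiles 465 to 468 formed the longest run of neighbouring TSIX tiles all called lower, with mean log2 ratios of -0.60, -0.78 and -0.80 in pairs 1, 2 and 3. The run goes from TSIX_465 (-0.69 ± 0.12) through TSIX_467, its lowest, to TSIX_468 (-0.40 ± 0.12, adjusted p = 0.0439 in edgeR). The call of TSIX_468 had the highest adjusted p of the named tiles and was lost without its most abundant barcode (adjusted p = 0.0677 in edgeR). In all, 37 of the 79 lower tiles lay in 15 runs of at least 2 tiles. Of the 23 higher tiles 4 lay in 2 runs.

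Single TSIX tiles went the other way. TSIX_198 had 469.6, 345 and 348 CPM in Input and 699.6, 777 and 1019.8 in the immunoprecipitate (1.10 ± 0.23, adjusted p = 0.0175 in edgeR). TSIX_5 had 479, 544 and 515 CPM in Input and 921, 1089.7 and 1273 in the immunoprecipitate (1.08 ± 0.15). The groups did not overlap in either tile, and 22 of 24 barcodes of each were higher. They were the only TSIX tiles among the 10 highest called tiles of the 8 RNAs.

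**Figure D3:**
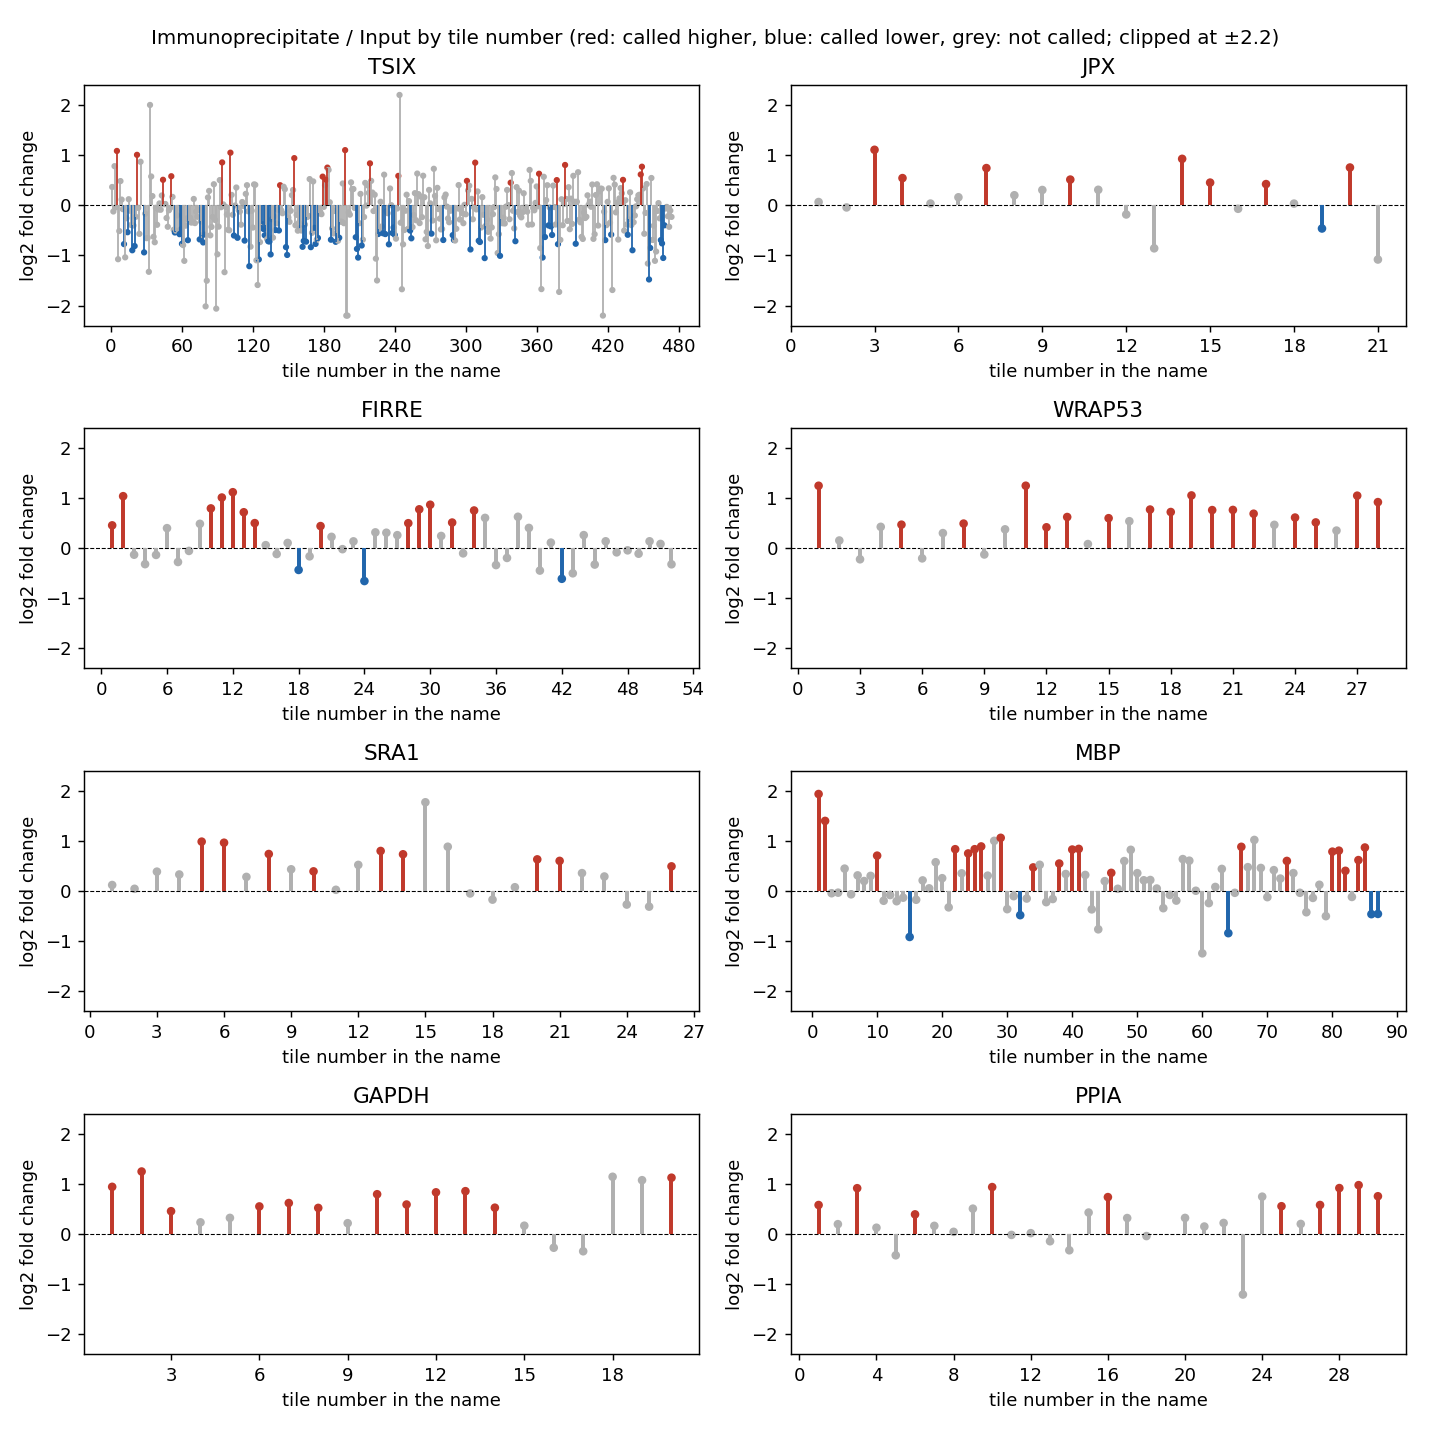
Fitted log2 fold change against the tile number in the name, for each of the 8 source RNAs (red, called higher; blue, called lower; grey, not called; values beyond the range drawn at its edge). Lower tiles are spread along TSIX, while WRAP53 shows 17 higher tiles and no lower ones, with a run of 6 from tile 17 to tile 22.

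JPX, a noncoding RNA that takes part in switching on X inactivation and has been reported to bind CTCF, had 8 tiles higher, 1 lower and 12 not called of 21. The median was 0.20. The higher tiles numbered 7, 2 and 0 without pair 1, 2 and 3, and the lower tiles 2, 0 and 0. JPX_3 had 614, 414 and 474 CPM in Input and 1201, 1013 and 988 in the immunoprecipitate, a 2.15-fold difference (1.11 ± 0.15, adjusted p = 0.00912 in edgeR) with no overlap. JPX_19, the 1 lower tile, was also abundant, with 3018, 4667 and 4723 CPM in Input and 2478, 3168 and 3235 in the immunoprecipitate (-0.46 ± 0.12, adjusted p = 0.0340 in edgeR). Of its 23 barcodes with enough reads, 1 was higher, but its groups overlapped and its call was lost without its most abundant barcode (adjusted p = 0.0507 in edgeR).

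FIRRE, a nuclear noncoding RNA made from a CTCF-rich locus on the X chromosome, had 13 tiles higher and 3 lower of 52, with a median of 0.14. The higher tiles numbered 21, 3 and 0 without pair 1, 2 and 3, and the lower tiles 6, 1 and 0. Of all 976 tiles tested without pair 2, 61 were higher, a share near that of FIRRE. Without the pairing edgeR called 0 FIRRE tiles, so each FIRRE call below rests on it. Tiles 10 to 14 were all higher, with mean log2 ratios of 0.81, 0.94 and 0.73 in the 3 pairs. FIRRE_12 led this run, from 888, 376 and 444 CPM in Input to 1575, 914 and 1049 in the immunoprecipitate (1.12 ± 0.15), and all 24 of its barcodes were higher. At the ends of the run, FIRRE_10 (0.79 ± 0.21) and FIRRE_14 (0.50 ± 0.12) were called but their groups overlapped. No FIRRE tile numbered above 40 was called higher. FIRRE_24 was its lowest called tile (-0.66 ± 0.14), at 1504, 2128 and 2086 CPM in Input and 1058, 1506 and 1070.4 in the immunoprecipitate.

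The WRAP53 gene encodes a protein of the telomerase and Cajal body machinery, and an RNA from its locus has been described as a partner of CTCF. Of the 28 WRAP53 tiles 17 were higher (60.7%), 0 were lower and 11 did not pass, with a median of 0.53. Its higher tiles numbered 17, 7 and 0 without pair 1, 2 and 3, and 3 tiles were lower without pair 1. WRAP53_11 rose from 518, 227 and 292 CPM to 975, 699 and 673 (1.24 ± 0.20, adjusted p = 0.0109 in edgeR). WRAP53_1, the most abundant of the named higher tiles, had 4672, 2675 and 2862 CPM in Input and 6409.9, 8766 and 8389 in the immunoprecipitate (1.24 ± 0.25). All 24 of its barcodes were higher, though its log2 ratio was 0.46 in pair 1 and 1.71 and 1.55 in pairs 2 and 3.

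The longest run of higher tiles over the 8 RNAs was WRAP53 17 to 22. Its mean log2 ratio was 0.79, 0.76 and 0.82 in the 3 pairs, while single tiles differed more. WRAP53_17 (0.77 ± 0.12) opened the run, with paired ratios of 0.71, 0.76 and 0.83. WRAP53_19 was its highest, at 697, 426 and 500.0 CPM in Input and 1342, 1044 and 944 in the immunoprecipitate (1.05 ± 0.15). WRAP53_22 closed it at 0.69 ± 0.19 with overlapping groups and paired ratios of 0.41, 0.70 and 0.94, and its call was lost under scaling by library size (adjusted p = 0.0563 in edgeR).

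SRA1, whose RNA acts as a coactivator of steroid receptors, had 9 of 26 tiles higher, none lower and a median of 0.39. Its higher tiles numbered 12, 3 and 0 without pair 1, 2 and 3, with 2 lower tiles without pair 1. SRA1_5 had 1084, 891 and 954 CPM in Input and 1992, 2009 and 1786 in the immunoprecipitate (0.98 ± 0.12, adjusted p = 0.00912 in edgeR). The groups lay far apart and all 24 barcodes were higher. SRA1_15 had a larger value (1.77 ± 1.09) but was scarce and did not pass, with 50.5, 8.19 and 25.8 CPM in Input and 27.6, 99.8 and 122 in the immunoprecipitate. It was lower in pair 1 and higher in the other pairs.

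Of the mRNAs, GAPDH had 12 of 20 tiles higher (60.0%), 0 lower and a median of 0.57, near that of WRAP53 (0.53). The order of these medians turned in pair 1, where they were 0.48 and 0.50. Its higher tiles numbered 13, 5 and 0 without pair 1, 2 and 3, with 1 lower tile without pair 1. GAPDH_2 had 853, 456 and 556 CPM in Input and 1324, 1577 and 1375 in the immunoprecipitate (1.24 ± 0.22, adjusted p = 0.0117 in edgeR). GAPDH_20 had 1237, 633 and 764 CPM in Input and 2110.1, 1843 and 1583 in the immunoprecipitate (1.12 ± 0.16). In both tiles all 24 barcodes were higher and the groups did not overlap.

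GAPDH tiles 10 to 14 were all higher and had mean log2 ratios of 0.56, 0.83 and 0.76, from GAPDH_10 (0.79 ± 0.13) through GAPDH_13 (0.85 ± 0.15) to GAPDH_14 (0.52 ± 0.11). Tiles 1 to 3, a run of a length shared by other RNAs, had mean log2 ratios of 0.51, 1.33 and 0.80. In this run GAPDH_1 (0.94 ± 0.27, adjusted p = 0.0428) and GAPDH_3 (0.45 ± 0.13, adjusted p = 0.0387) passed narrowly in edgeR and lost their calls under scaling by library size.

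PPIA, which encodes cyclophilin A, had 10 of 29 tested tiles higher, 0 lower and a median of 0.32. Its higher tiles numbered 14, 6 and 0 without pair 1, 2 and 3, with 3 lower tiles without pair 1. Tiles 27 to 30, the last of this RNA, were all higher, with mean log2 ratios of 0.67, 0.84 and 0.90. PPIA_29 had 1115, 1345 and 1448 CPM in Input and 2318, 2719 and 2602 in the immunoprecipitate (0.97 ± 0.11, adjusted p = 0.00912 in edgeR), with no overlap and all 23 barcodes with enough reads higher. PPIA_30 (0.75 ± 0.13) also separated fully, whereas PPIA_27 (0.58 ± 0.15) overlapped and lost its call under scaling by library size and without its most abundant barcode.

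MBP, the mRNA of myelin basic protein, had 20 of 87 tiles higher and 5 lower, with a median of 0.22. The higher tiles numbered 35, 10 and 0 without pair 1, 2 and 3, and the lower tiles 11, 1 and 0. Its first tiles had the largest called values of the 8 RNAs, and their levels differed widely between the libraries of each fraction. MBP_1 had 224, 10.9 and 64.5 CPM in Input and 589, 82.8 and 185 in the immunoprecipitate (1.93 ± 0.42, adjusted p = 0.0202 in edgeR). MBP_2 had 456, 31.0 and 116 CPM in Input and 1082, 81.4 and 341 in the immunoprecipitate (1.40 ± 0.22). Each immunoprecipitate exceeded its own Input, but the groups overlapped widely. Replicate 1 was high in both fractions of both tiles. For MBP_2, immunoprecipitate 2 (81.4 CPM) also lay under Input 3 (116 CPM). Without the pairing the adjusted p of MBP_1 and MBP_2 was 0.393 and 0.473 in edgeR. MBP_15 was the lowest called MBP tile, from 4858, 4221 and 4107 CPM to 3376, 2003 and 1855 (-0.92 ± 0.16), with 1 of 24 barcodes higher.

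**Figure D4:**
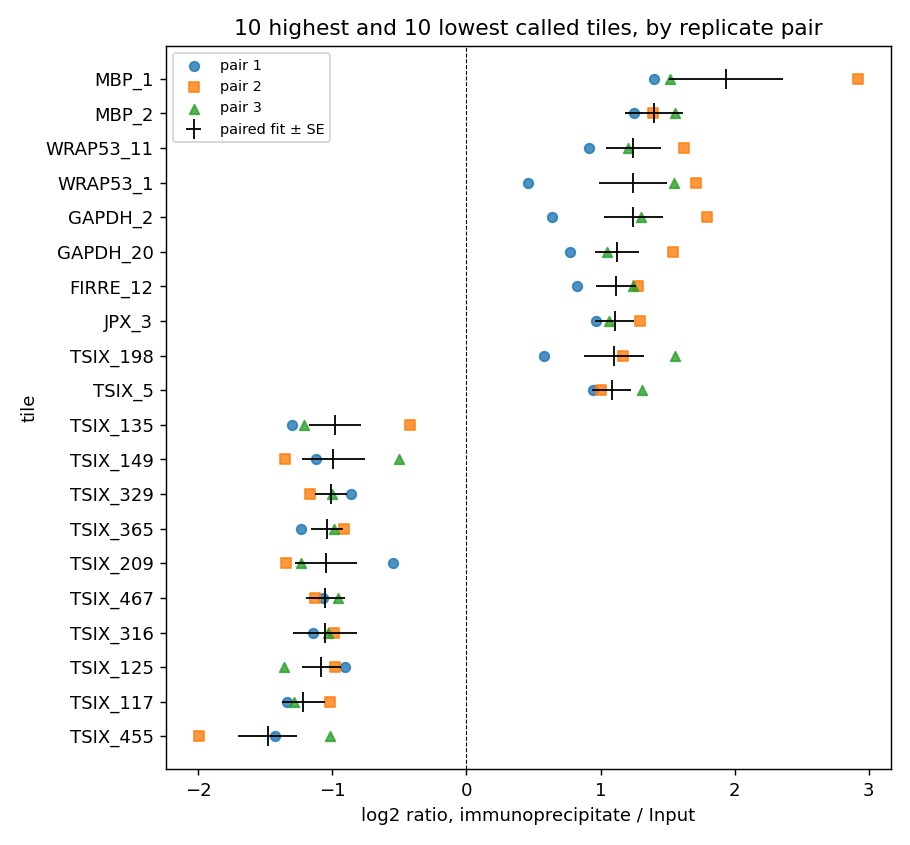
Log2 ratio of immunoprecipitate to Input in each replicate pair (symbols) for the 10 highest and 10 lowest called tiles, with the paired fit and its SE in black. Only called tiles with the same sign in all pairs were eligible, so the shared sign is set by the choice. The ratios of WRAP53_1 run from 0.46 in pair 1 to 1.71 in pair 2.

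By class, the median log2 fold change was -0.16 over the X-linked noncoding RNAs (544 tiles), 0.48 over WRAP53 and SRA1 (54 tiles) and 0.31 over the mRNAs (136 tiles). The figure for the X-linked class was set by TSIX, since JPX and FIRRE had medians above 0. Differences between RNAs were not tested.

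Of the 39 tiles named above as called, 14 also passed in the unpaired fit: WRAP53_1, GAPDH_2, JPX_3, TSIX_198, TSIX_5, SRA1_5, PPIA_29, PPIA_30, TSIX_329, TSIX_365, TSIX_467, TSIX_125, TSIX_117 and TSIX_455. The groups were fully apart in 28 of the 39. Without pair 1 all 39 stayed called, without pair 2 24 did, and without pair 3 none did (edgeR adjusted p of 0.0573 to 0.257). The 39 were chosen as called with all pairs in the fit. Their staying called with part of these pairs is therefore in part set by that choice. No named tile changed sign under any setting tried.

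Barcodes mark separate oligonucleotides of the same tile, and their reads sum to the tile counts behind the calls. Their agreement within called tiles is therefore in part set by the calls. In tiles called higher the median was 21 of 24 barcodes higher, in tiles called lower 2 of 24, and in tiles not called 11 of 24. For TSIX the median tile had 36.4% of its barcodes higher, and for WRAP53 and GAPDH 83.3% and 79.2%. Barcodes of a tile share the cells and libraries, so they are not replicates of the comparison.

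The level of a tile in Input moved with the calls. With tiles put into 4 groups by Input level, the lowest group (0.550 to 423 CPM, 245 tiles) had 25 higher and 2 lower, and the highest group (1278 to 14106 CPM, 244 tiles) had 26 higher and 63 lower. The SD of the log2 fold change over tiles was 0.90 in the lowest group and 0.42 in the highest. The TSIX median was below 0 in each group (-0.13, -0.16, -0.28 and -0.28 from the lowest up) and that of the other 7 RNAs above 0 (0.47, 0.49, 0.32 and 0.16). Whether Input level accounts for the difference between them was not tested. The correlation of log2 ratio with Input level was 0.13, -0.24 and -0.38 (Spearman, over 977 tiles) in pairs 1, 2 and 3, a description only, as Input enters both measures.

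**Figure D5:**
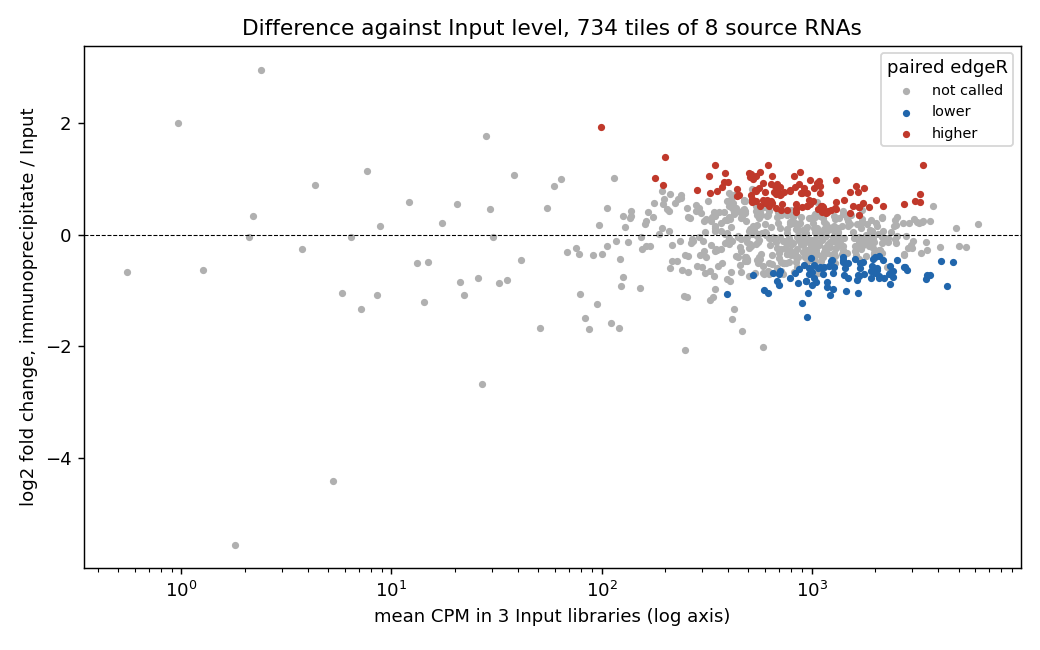
Fitted log2 fold change against the mean CPM in the 3 Input libraries (log axis) for 734 tiles, coloured by call. Scattered grey points at the left are scarce tiles with large values that did not pass, and blue points lie mostly to the right of the red ones.

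The largest fitted values belonged to tiles that did not pass. TSIX_416 (-5.55 ± 5.38), TSIX_199 (-4.41 ± 2.98) and TSIX_244 (2.96 ± 2.75) had mean Input levels between 1.79 and 5.28 CPM and pairs that disagreed in size or sign. TSIX_80 was a different case, well covered but uneven. It had 147, 918 and 686 CPM in Input and 2.58, 550.3 and 436 in the immunoprecipitate, so that pair 1 alone carried a log2 ratio of -5.82 against -0.74 and -0.66. TSIX_89 and TSIX_379 had the same form, with 0.970 and 7.86 CPM in immunoprecipitate 1 and 192 to 497 in the others.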

How the data were processed

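The authors deposited raw read counts per tile and barcode, per the file headers and labels, from single-end amplicon sequencing of cDNA. The program that assigned reads to barcodes is not given in the sources used here. No molecular identifiers are described, and PCR reads are not independent molecules. Columns were matched to samples by title, and 0 columns were left unmatched. Counts were summed over the 24 barcodes of a tile, passed through filterByExpr and given TMM factors. The 977 tiles left were fitted together in edgeR 4.0.16 (R 4.3.3) by robust quasi-likelihood, with the replicate number as a block. The SE of a fold change is its size on the log2 scale over the root of its F. Paired ratios use log2 CPM with a prior count of 2. Barcode counts use barcodes of at least 30 reads, with reads summed over the libraries of each group and without the pairing.

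The rule that sets up the comparison pairs libraries by number. Labels do not say what a number shares. Deviations from the group means correlated within numbers 1, 2 and 3 at 0.70, 0.68 and 0.29, and between numbers at -0.72 to 0.57. Immunoprecipitate 3 followed Input 2 (0.57) more than its own Input. Libraries of a group were not copies (chi-square per degree of freedom 257 to 4611), and labels do not say that they came from separate cultures. The paired p therefore measures only the spread, between these pairs, of the difference between immunoprecipitate and Input. The unpaired p measures the spread between these libraries within a group.

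Tiles, lists and tests were chosen with earlier results of these data known. Named tiles were the 10 highest and 10 lowest called tiles with 1 sign in all pairs, the highest and lowest of each RNA, and the ends and extreme of the 6 longest runs, with ties in length broken by the larger mean size of log2 fold change (the last of the 6 was tied with 10 others). The cases beside them, SRA1_15 and the last TSIX tiles described, were chosen after their values were seen. All 8 symbols matched the gene table. Of the tiles of these RNAs, 4 were not tested (PPIA_19, TSIX_26, TSIX_27 and TSIX_350, with 1 to 33 reads). Totals over all tested tiles include a further source RNA that is not reported here. The test was checked on simulated data. Alternatives were no block, RLE (also the size factors of DESeq2 1.42.0), library size, other filters, DESeq2, libraries left out and the top barcode of each tile left out.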

Additional observations from a re-analysis of the deposited data

How the results depend on the processing

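The count of 270 called tiles (151 higher, 119 lower) was most sensitive to pairing and to single replicates. Without the replicate block it was 47 (28 higher, 19 lower), and with DESeq2 493 (254 higher, 239 lower). Leaving out both libraries of a number gave 0 to 474 tiles, 0 to 243 higher and 0 to 231 lower, highest without replicate 1 and lowest without replicate 3. Leaving out 1 library without the replicate block gave 0 to 135 tiles, 0 to 83 higher and 0 to 54 lower: 111 (57 higher, 54 lower) without immunoprecipitate replicate 1, 135 (83 higher, 52 lower) without Input replicate 1, and 0 without any library of replicates 2 and 3 (146 to 250 at an unadjusted p under 0.05 in edgeR). The reason was not tested. RLE factors, library size, omitting the filter, a minimum mean count of 50 and leaving out each tile's top barcode gave 247 to 276 calls. The median log2 fold change of TSIX was below 0 (-0.24 to -0.15) and those of the other 7 RNAs above 0 (0.06 to 0.87) under every setting. WRAP53 and GAPDH had the highest 2 medians in each, in either order. Scarce tiles varied more: in the lowest of 4 groups by Input level the median SD between pairs was 0.49, against 0.21 in the highest.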
